A study of Mus musculus with 6 samples.

Results

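The genes described here are the 7 insulin-like growth factor (IGF) binding proteins, *Igfbp1* to *Igfbp7*, the insulin receptor gene *Insr* and the genes of the main insulin receptor substrates, *Irs1* and *Irs2*. They were chosen by symbol, and all 10 were found among the 25403 genes listed for each liver. Bulk poly(A) RNA-seq had been performed on livers of 3 wild-type C57BL6/J mice (WT) and 3 mice with whole-body *Themis* knockout (*Themis*-KO), a gene best known from T cells. All 6 mice had received a metabolic dysfunction–associated steatohepatitis (MASH) diet that held 2% cholesterol and took 40 kcal% from fat and 20 kcal% from fructose, begun at 10 to 12 weeks of age and continued for 3 months. The knockout affects every cell type, so a difference in liver RNA is not tied to hepatocytes, and chow-fed livers were not analysed here. The mice had free access to food, but the time of day of collection and any fast before it are not given in the sources used here, nor is the strain background of the *Themis*-KO mice or what same-numbered livers share, and the p-values measure only the spread between these livers.

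Insulin and IGF-1 act through related receptor tyrosine kinases that phosphorylate the IRS adaptors, which recruit phosphoinositide 3-kinase and activate AKT. AKT in turn keeps FOXO transcription factors out of the nucleus. The liver makes most circulating IGF-1 and several of the binding proteins that carry it and limit its access to receptors. Among these, *Igfbp1* is the acute one: FOXO1 drives its transcription in hepatocytes and insulin shuts it off, and *Irs2* is under similar control.

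The libraries held 20679642 to 25649767 counts, and 14496 genes had enough counts to be tested. *Themis* itself did not separate the genotype labels, with 8.07, 25.6 and 12.0 CPM (counts scaled to a common library size) across WT replicates 1 to 3 and 8.63, 7.74 and 9.97 across *Themis*-KO replicates 1 to 3 (adjusted p = 0.199), so each liver is referred to by its label. Which part of the gene the knockout allele removes is not given in the sources used here, and reads from any remaining transcript would be counted. WT replicates 1 and 2 stood apart from the other 4 livers, as *Gm28438* took 96.6% and 96.8% of the joint counts of *mt-Nd3* and *Gm28438* there and 2.2% to 3.26% in the rest. This split is called the mitochondrial type here, which is a name for the counts only. The labels give no such type, and what causes the split was not tested. By these counts WT replicate 3 is the only WT liver of the type that all *Themis*-KO livers share. *Themis*-KO replicate 3 also stood apart, since leaving it out took the genes with an adjusted p under 0.05 from 721 to 2228 that rose and from 600 to 2039 that fell. Hepatocyte markers dominated every liver, with *Alb* between 33600 and 43020 CPM. Of 5 T cell markers tested 1 passed the test, and no B cell marker of 5 did, where 9.11% of all tested genes passed. The T cell marker was *Cd4*, with 1.06 to 2.02 CPM in livers labelled WT and 0.516 to 0.661 in livers labelled *Themis*-KO (log2 fold change −1.46, adjusted p = 0.0386). Scaling by total counts in place of TMM moved the median log2 fold change of all genes from 0.0095 to 0.15 and the calls to 1449 higher and 387 lower. The 4 Y-linked genes tested were present in every liver, and *Xist* had 1 to 8 counts.

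The upstream sequence of *Igfbp1* shows the element through which insulin and FOXO1 are known to act, and those of *Irs1* and *Irs2* are set beside it because they hold the same letters. In the windows below, from RefSeq on build GRCm38.p6 and read 5′ to 3′ on the gene's strand, capitals mark matches to TGTTTTG or TATTTTG or to their reverse complements, the 7-base cores searched on both strands of up to 250 bases before each RefSeq start. No matches overlapped each other in the windows shown. *Igfbp1* is shown from chr11:7197537-7197781 (plus strand), *Irs1* from chr1:82291458-82291557 (minus strand) and *Irs2* from chr8:11008930-11009013 (minus strand).
Igfbp1: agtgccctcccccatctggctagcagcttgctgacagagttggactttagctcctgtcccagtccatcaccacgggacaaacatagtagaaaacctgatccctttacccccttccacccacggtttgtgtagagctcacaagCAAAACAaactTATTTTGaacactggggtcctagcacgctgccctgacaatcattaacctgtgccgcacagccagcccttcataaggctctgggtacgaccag
Irs1: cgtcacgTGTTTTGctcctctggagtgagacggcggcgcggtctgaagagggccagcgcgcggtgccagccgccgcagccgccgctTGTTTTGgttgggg
Irs2: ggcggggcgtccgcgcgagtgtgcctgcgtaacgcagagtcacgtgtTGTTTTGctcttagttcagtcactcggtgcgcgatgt
In *Igfbp1*, a reverse TGTTTTG, 108 to 102 bases before the RefSeq start, faced a TATTTTG, 97 to 91 bases before it. The *Igfbp1* window was cut to end just before the gene start given below. Positions are counted from the RefSeq start, which lies some bases further on, so they differ from a count back from the printed end. *Irs1* held TGTTTTG at 111 to 105 and at 32 to 26 bases before its start, and *Irs2* at 37 to 31 bases. Of the 9 members with a window in the RefSeq table (*Insr* had no entry), these 3 held either core. Of all 32851 windows in that table, several of which can belong to 1 gene, 9.14% held either core and 0.931% held at least 2 matches. A match describes letters and is not a measured binding site. The 3 genes with these letters are described below with unlike values, as *Igfbp1* passed the test and *Irs1* and *Irs2* did not.

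Among the 10 genes, 3 passed an adjusted p of 0.05 between *Themis*-KO and WT labels (edgeR's quasi-likelihood test, Benjamini-Hochberg over all tested genes), against a background of 9.11% of the genes tested. *Igfbp1* and *Igfbp7* rose and *Igfbp2* fell. The background was 4.97% for genes that rose and 4.14% for genes that fell. In 6 of the 10, the livers of one label lay wholly beyond those of the other, 3 above and 3 below, where 34.6% of all tested genes did so. The median absolute log2 fold change was 0.37 over the 10 genes and 0.24 over all tested genes. Any of 4 livers was left out in turn (WT replicate 1 or 2, *Themis*-KO replicate 1 or 2). Then 0 of the 10 passed, in fits in which 0.136% to 0.512% of all genes passed. In these fits 4 to 7 of the 10 had an unadjusted p under 0.05, beside 2932 to 3402 of the 14738 to 14855 genes tested. With all 6 livers, 6 of the 10 and 30.7% of all tested genes had one. There were 3 members called without WT replicate 3, where 5.73% of all genes passed. Without *Themis*-KO replicate 3 there were 4, where 28.8% of all genes passed, and in DESeq2 there were 4, where 15.1% did. When the mitochondrial type was a covariate, 0 of the 10 passed, in a fit in which 3 of the 14496 genes tested did. In that fit 3 of the 10 had an unadjusted p under 0.05, beside 1524 of all genes tested.

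**Figure D1:**
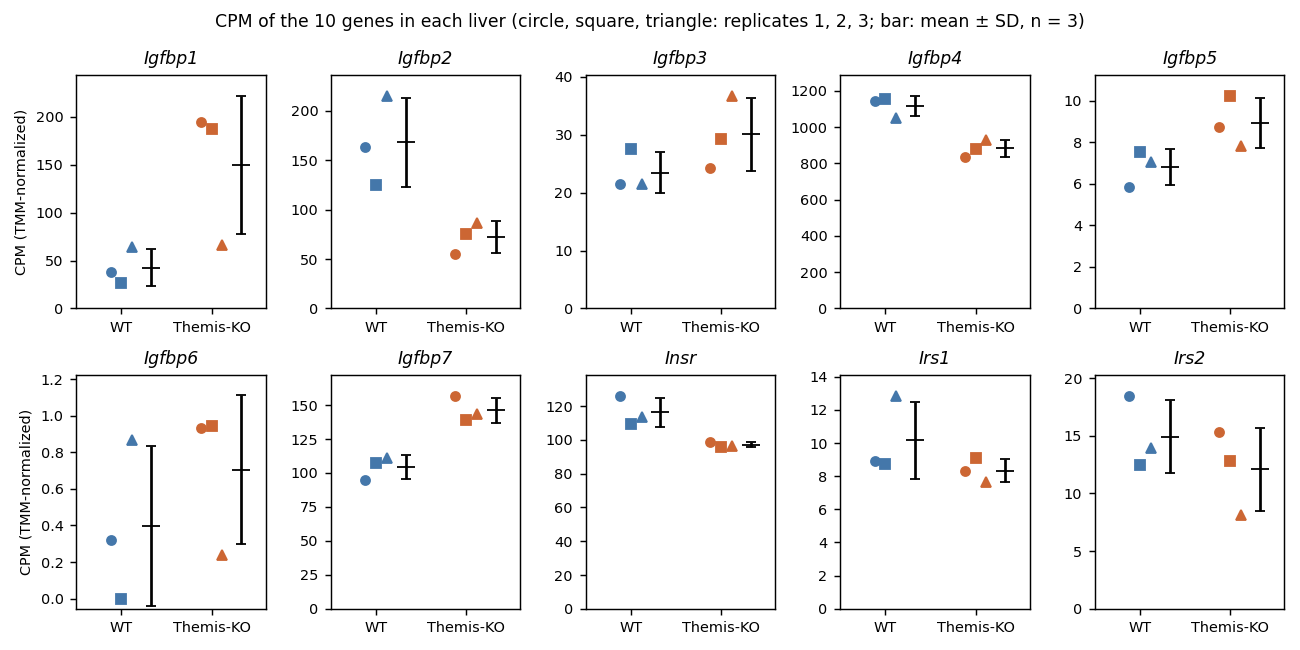
Expression of the 10 genes in each liver, as TMM-normalized CPM on a linear axis for each gene, with WT-labelled livers in blue and *Themis*-KO-labelled livers in orange; circles, squares and triangles are replicates 1, 2 and 3 and bars are the mean ± SD (n = 3). *Igfbp2*, *Igfbp4* and *Insr* lie lower in every *Themis*-KO liver, and the triangle of *Igfbp1* in the *Themis*-KO group, at 66.2 CPM, lies just above the highest WT liver, at 63.8 CPM.

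*Igfbp1* (ENSMUSG00000020429), the insulin-suppressed binding protein, is found on chromosome 11 (forward strand) from 7197782 to 7202546 in GRCm38. Livers held 37.8, 26.4 and 63.8 CPM across WT replicates 1 to 3 and 195, 188 and 66.2 across *Themis*-KO replicates 1 to 3. The first pair of *Themis*-KO livers was thus far above all others, while *Themis*-KO replicate 3 exceeded WT replicate 3 by a narrow margin, so that the groups did not overlap. *Igfbp1* rose 3.50-fold, with a log2 fold change of 1.81 (SE 0.45, 95% interval 0.77 to 2.85, adjusted p = 0.0471). The log2 fold change was 2.15 without *Themis*-KO replicate 3 (adjusted p = 0.00391), and the adjusted p was between 0.137 and 0.167 without WT replicate 1 or 2 or *Themis*-KO replicate 1 or 2. The log2 fold change was 1.23 with the mitochondrial type as a covariate (adjusted p = 0.52).

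*Igfbp2* (ENSMUSG00000039323) encodes a binding protein secreted by hepatocytes that is known to be low in obesity and fatty liver. The gene spans chromosome 1 (forward strand) from 72824503 to 72852474. It was expressed at 164, 125 and 215 CPM across WT replicates 1 to 3 and at 54.8, 75.4 and 86.7 CPM across *Themis*-KO replicates 1 to 3. Every liver labelled *Themis*-KO was below every liver labelled WT, with a gap between the groups of 86.7 to 125 CPM. *Igfbp2* fell by 1.22 on the log2 scale (SE 0.23, 95% interval −1.74 to −0.69, adjusted p = 0.0273), which made its level 2.325-fold higher in livers labelled WT. The log2 fold change lay between −1.39 and −1.001 with each liver left out in turn, and the adjusted p was between 0.0512 and 0.109 without WT replicate 1 or 2 or *Themis*-KO replicate 1 or 2. This fold change was −1.57 with the mitochondrial type as a covariate (adjusted p = 0.171). Of 11 hepatocyte markers, 3 fell and 0 rose, and their summed level was 68080 to 73960 CPM in livers labelled WT and 54500 to 57530 CPM in livers labelled *Themis*-KO, with none at 0. Their part in the lower levels of *Igfbp2* and of the genes below was not tested.

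*Igfbp1* and *Igfbp2* moved in opposite directions in the same livers. The ratio of *Igfbp1* to *Igfbp2* CPM was 0.231, 0.211 and 0.297 across WT replicates 1 to 3 and 3.56, 2.49 and 0.763 across *Themis*-KO replicates 1 to 3. The log2 ratio averaged −2.04 ± 0.25 in livers labelled WT and 0.92 ± 1.16 in livers labelled *Themis*-KO (SD, n = 3 each), a difference of 2.96. No test is given for it, since the groups did not overlap in either gene and moved in opposite directions, so their ratios could not overlap. The ratio exceeded 1 in *Themis*-KO replicates 1 and 2 and in none of the other livers.

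*Igfbp7* (ENSMUSG00000036256), whose product binds IGFs weakly and is made by endothelial and stromal cells, lies on chromosome 5 (reverse strand) from 77349240 to 77408041. Livers held 94.5, 107 and 111 CPM across WT replicates 1 to 3 and 157, 139 and 143.5 across *Themis*-KO replicates 1 to 3. The livers of each label lay close together and the groups did not overlap. *Igfbp7* rose 1.40-fold, with a log2 fold change of 0.49 (SE 0.095, 95% interval 0.27 to 0.71, adjusted p = 0.0304). The adjusted p was between 0.095 and 0.121 when WT replicate 1 or 2 or *Themis*-KO replicate 1 or 2 was left out. *Polr2b*, which overlaps the gene on the opposite strand, had a log2 fold change of −0.33 (adjusted p = 0.0623), and whether the counting used strand is not given in the sources used here.

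Hepatic stellate cell markers moved with *Igfbp7*: of 12 markers, 5 rose and 0 fell, and their summed CPM was 543 to 607 in livers labelled WT and 784 to 806 in livers labelled *Themis*-KO. Of 10 endothelial markers, 1 (*Lyve1*) was higher, and the sums were 279 to 309 and 314 to 359 CPM. Of 11 macrophage markers, 3 were higher, with sums of 352 to 618.5 and 591 to 775 CPM. No marker of these 3 lists was at 0 in any liver. Of 8 cholangiocyte markers tested, 1 was higher, and the sums over that list were 169 to 208.5 and 400.1 to 632 CPM. Most of that sum was the called gene, *Spp1*, and without it the sums were 28.4 to 32.5 and 32.99 to 61.3 CPM. Their part in the difference of *Igfbp7* was not tested, and in whole liver a change in the number of cells of a type and a change in RNA per cell cannot be told apart.

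*Igfbp4* (ENSMUSG00000017493), on chromosome 11 (forward strand) from 99041244 to 99054392, encodes a binding protein that restrains IGF action until the protease PAPP-A cleaves it. It had 1141, 1156 and 1052 CPM across WT replicates 1 to 3 and 836.5, 881 and 928 CPM across *Themis*-KO replicates 1 to 3. The groups did not overlap, but the test was not passed, with a log2 fold change of −0.34 (SE 0.092, 95% interval −0.55 to −0.13, adjusted p = 0.057). It passed in DESeq2 (adjusted p = 0.00565), without the filter on low counts (adjusted p = 0.0442) and without *Themis*-KO replicate 3, where the log2 fold change was −0.39 (adjusted p = 0.0246).

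*Igfbp3* (ENSMUSG00000020427) encodes the main carrier of circulating IGF-1, made in the liver by nonparenchymal cells, and the study counted it among its senescence genes. It reached 21.4, 27.5 and 21.4 CPM across WT replicates 1 to 3 and 24.2, 29.3 and 36.7 across *Themis*-KO replicates 1 to 3. The groups overlapped, and the log2 fold change was 0.36 (SE 0.17, 95% interval −0.037 to 0.75, adjusted p = 0.196). *Igfbp5* (ENSMUSG00000026185), whose product binds extracellular matrix, had 5.87, 7.53 and 7.06 CPM against 8.75, 10.2 and 7.84 CPM in the same order of replicates. Its livers did not overlap by label, with a log2 fold change of 0.39 (95% interval 0.026 to 0.76, adjusted p = 0.141). *Igfbp6* (ENSMUSG00000023046), whose product prefers IGF-2, had only 0 to 22 counts per liver, and its 95% interval of −1.21 to 2.76 on the log2 scale left a difference undetectable at this depth.

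Both called *Igfbp* genes with a large fold change have a neighbour of the family. *Igfbp3* lies on chromosome 11 (reverse strand) from 7206086 to 7213923, end to end with *Igfbp1*, with 3539 bases between them. *Igfbp5* lies on chromosome 1 (reverse strand) from 72857932 to 72874884, 5457 bases beyond the end of *Igfbp2*. The neighbours had log2 fold changes of 0.36 and 0.39 beside 1.81 for *Igfbp1* and −1.22 for *Igfbp2*. *Igfbp6* lies on chromosome 15 from 102144362 to 102149511.

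*Insr* (ENSMUSG00000005534), on chromosome 8 (reverse strand) from 3122061 to 3279617, was expressed at 126, 109.6 and 113.5 CPM across WT replicates 1 to 3 and at 99.1, 96.1 and 96.6 CPM across *Themis*-KO replicates 1 to 3. The 3 *Themis*-KO livers lay within 3 CPM of each other and below every liver labelled WT. The log2 fold change was −0.26 (SE 0.083, 95% interval −0.45 to −0.065, adjusted p = 0.086), which did not pass the test.

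*Irs1* (ENSMUSG00000055980), on chromosome 1 (reverse strand) from 82233101 to 82291416, had 8.90, 8.73 and 12.8 CPM across WT replicates 1 to 3 and 8.29, 9.08 and 7.65 CPM across *Themis*-KO replicates 1 to 3. Only WT replicate 3 stood above the rest. The log2 fold change was −0.29 (SE 0.18, 95% interval −0.70 to 0.13, adjusted p = 0.306). *Gm9747*, which overlaps *Irs1* on the opposite strand, had 9.55 to 13.6 CPM and a log2 fold change of 0.20 (adjusted p = 0.343). Whether the counting used strand is not given, so the values of *Irs1* are uncertain. *Irs2* (ENSMUSG00000038894), on chromosome 8 (reverse strand) from 10984681 to 11008458, had 18.4, 12.4 and 13.9 CPM across WT replicates 1 to 3 and 15.3, 12.8 and 8.17 CPM across *Themis*-KO replicates 1 to 3. The groups overlapped, with a log2 fold change of −0.30 (SE 0.24, 95% interval −0.86 to 0.25, adjusted p = 0.417). The interval of *Irs2* did not reach the rise of 1.81 estimated for *Igfbp1*, and the difference between both genes was not tested.

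**Figure D2:**
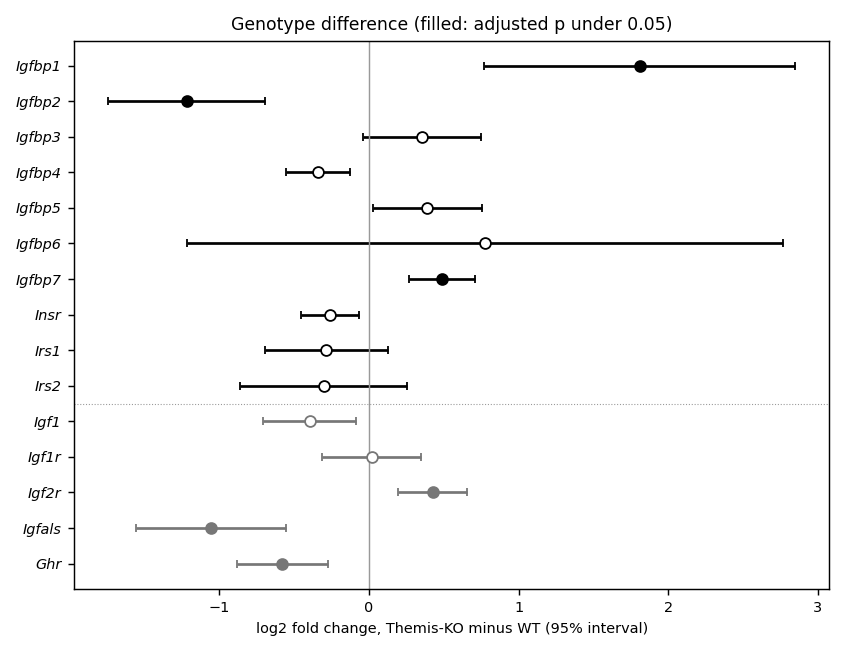
Log2 fold change between *Themis*-KO and WT labels with its 95% interval, for the 10 genes (black, above the dotted line) and 5 genes of the IGF axis (grey); filled points have an adjusted p under 0.05. *Igfbp1* stands at 1.81, *Igfbp2* at −1.22 and *Igfals* at −1.05, and the interval of *Igfbp6* is the widest of the 15 genes plotted.

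Per kilobase of exon, the order of the 10 genes differed between the labels. In livers labelled WT, *Igfbp4* led with 253 CPM per kilobase, followed by *Igfbp2* with 91.0 and *Igfbp7* with 86.3, whose livers overlapped, and then by *Igfbp1* with 28.0. *Insr* (8.46) and *Igfbp3* (7.50) overlapped in the middle, and *Irs2* (2.36), *Igfbp5* (1.14), *Irs1* (1.11) and *Igfbp6* (0.357) were lowest, with *Igfbp5* and *Irs1* overlapping. In livers labelled *Themis*-KO, *Igfbp4* again led with 199.7 CPM per kilobase, but *Igfbp7* (121) and *Igfbp1* (98.2) came next and *Igfbp2* (39.2) was the fourth. There *Igfbp1* ranged from 43.4 to 128 CPM per kilobase and overlapped both *Igfbp7*, at 115 to 129.6, and *Igfbp2*, at 29.7 to 46.95. *Igfbp3* (9.60) stood above *Insr* (7.08) there, without overlap, followed by *Irs2* (1.91), *Igfbp5* (1.49), *Irs1* (0.912) and *Igfbp6* (0.635), of which *Irs2* overlapped *Igfbp5* and *Irs1* overlapped *Igfbp6*.

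Genes of the IGF system around the binding proteins were called in both directions. Of 12 listed ligands, receptors and carriers, 7 could be tested, of which 2 fell and 1 rose, where 9.11% of all tested genes passed. Their median log2 fold change was 0.020, beside 0.0095 over all tested genes. *Igfals*, the acid-labile subunit that completes the circulating complex of IGF-1 with IGFBP3 or IGFBP5, had 58.85, 52.7 and 34.5 CPM across WT replicates 1 to 3 and 25.5, 26.45 and 18.3 across *Themis*-KO replicates 1 to 3. Every liver labelled *Themis*-KO was below every liver labelled WT. The log2 fold change of *Igfals* was −1.05 (adjusted p = 0.0335, SE 0.22). The growth hormone receptor gene *Ghr* fell by 0.58 (adjusted p = 0.0404) and *Igf2r*, a receptor that clears IGF-2, rose by 0.43 (adjusted p = 0.0418). *Igf1* had 334, 335 and 304 CPM across WT replicates 1 to 3 and 254, 284.5 and 200 across *Themis*-KO replicates 1 to 3, without overlap, and its log2 fold change of −0.40 did not pass the test in edgeR (adjusted p = 0.0952) but did in DESeq2 (adjusted p = 0.041). *Igf1r*, scarce in adult liver at 4.258 to 4.725 CPM, had a log2 fold change of 0.020 (95% interval −0.31 to 0.35, adjusted p = 0.936) whose sign turned when single livers were left out. *Igf2* had 6 to 13 counts per liver and was not tested. None of the 3 calls of this list remained without WT replicate 1 or 2 or without *Themis*-KO replicate 1 or 2, and that of *Igf2r* was also lost without WT replicate 3.

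Downstream of the receptor, 33 kinases, adaptors and effectors were listed and 32 tested, with a median log2 fold change of 0.031. Where 9.11% of all tested genes passed, 1 of these rose and 0 fell. That gene, *Pik3cd*, encodes a phosphoinositide 3-kinase catalytic subunit known mainly from leukocytes, and it had 6.28, 7.73 and 11.5 CPM in livers labelled WT and 16.2, 18.3 and 13.8 in livers labelled *Themis*-KO (log2 fold change 0.92, adjusted p = 0.0439). This call was lost without WT replicate 1 or 2 or *Themis*-KO replicate 1 or 2. *Akt2*, the main AKT of liver, had a log2 fold change of −0.066 (95% interval −0.28 to 0.14, adjusted p = 0.652), which turned to 0.074 with libraries scaled by total counts. *Foxo1*, the transcription factor that insulin restrains, had 52.3, 51.3 and 47.9 CPM against 34.7, 41.7 and 59.6 CPM (adjusted p = 0.585). *Pik3r1*, the regulatory subunit, had a log2 fold change of 0.40 (adjusted p = 0.141) without overlap between the groups.

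The 22 listed inhibitors of insulin signalling had a median log2 fold change of 0.11. Where 9.11% of all tested genes passed, 1 of the 22 fell and 0 rose. *Ceacam1*, a receptor substrate that promotes hepatic insulin clearance, had 158, 149.8 and 143 CPM across WT replicates 1 to 3 and 106, 109.9 and 122 across *Themis*-KO replicates 1 to 3, with a log2 fold change of −0.42 (adjusted p = 0.0351, SE 0.088). It passed without *Themis*-KO replicate 3 but not without any other single liver, and with total-count scaling its adjusted p was 0.0558 while 3 other inhibitors were called higher. Because *Ceacam1* also acts in insulin clearance, its fall is not read as weaker inhibition of insulin signalling. The adaptors *Grb10* and *Grb14*, which block the receptor kinase, had log2 fold changes of 0.48 (adjusted p = 0.073) and −0.14 (adjusted p = 0.381). *Socs2*, a growth hormone feedback gene, ranged from 10.1 to 24.1 CPM in livers labelled WT and from 8.55 to 23.3 in livers labelled *Themis*-KO, with a log2 fold change of −0.015 (adjusted p = 0.984) whose sign turned with total-count scaling and without some single livers.

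*Igfbp1* belongs to the genes that insulin represses in hepatocytes, and 11 others of this kind were listed. Of these, 0 passed the test with all livers in edgeR, where 9.11% of all tested genes passed. The unadjusted p was under 0.05 for 3, beside 30.7% of all tested genes. DESeq2 called 1 higher and 1 lower, where it called 15.1% of all genes. The labels did not overlap in 1 of the 11, beside 34.6% of all tested genes. *G6pc*, the last enzyme of glucose production, whose upstream window also holds a TGTTTTG, 174 to 168 bases before the start, had 205, 289 and 310 CPM across WT replicates 1 to 3 and 164, 129 and 228 across *Themis*-KO replicates 1 to 3 (log2 fold change −0.62, unadjusted p = 0.0257, adjusted p = 0.113). *Pck1*, which controls entry into gluconeogenesis, had a log2 fold change of −0.40 (95% interval −0.85 to 0.045, adjusted p = 0.199). The same cores were found in 1 of 8 insulin-repressed genes with a window and in 2 of 12 insulin-induced genes, *Me1* and *Thrsp*. Any window of a gene was counted here, and 9.14% of all single windows held either core. Nothing particular to either list is read from these counts. The estimates of *G6pc* and *Pck1* had the opposite sign to that of *Igfbp1*. *Pdk4*, a kinase that spares glucose in fasting, was singled out after its values were seen. As for *Igfbp1*, *Themis*-KO replicates 1 and 2 lay above all other livers. *Pdk4* had 13.7, 11.0 and 21.7 CPM across WT replicates 1 to 3 and 149, 85.25 and 17.2 across *Themis*-KO replicates 1 to 3 (log2 fold change 2.44, adjusted p = 0.0596). Unlike for *Igfbp1*, *Themis*-KO replicate 3 lay below WT replicate 3, so the groups overlapped.

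Of 14 genes that insulin induces, 0 passed the test in edgeR and in DESeq2, where 9.11% and 15.1% of all genes did. In edgeR 1 of the 14 had an unadjusted p under 0.05, beside 30.7% of all tested genes. The median log2 fold change of the 14 was −0.014. *Srebf1*, the lipogenic regulator, had 415.5, 503 and 446 CPM across WT replicates 1 to 3 and 273, 221 and 482 across *Themis*-KO replicates 1 to 3 (log2 fold change −0.48, adjusted p = 0.249). Here *Themis*-KO replicates 1 and 2 lay below every WT liver and *Themis*-KO replicate 3 did not.

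The calls in these lists changed when *Themis*-KO replicate 3 was left out, in a fit in which 28.8% of all genes tested passed. Without it, 4 insulin-induced genes fell, among them *Thrsp*, *Srebf1* and *Gpam* with log2 fold changes of −1.84, −0.90 and −0.71. Among the insulin-repressed genes, 3 fell, with log2 fold changes of −0.97 for *Klf15*, −0.88 for *G6pc* and −0.61 for *Pck1*, and *Pdk4* rose by 2.90. *Thrsp*, *Gpam* and *Klf15* were named after their values were seen. Without this liver 10 inhibitors passed, 5 in each direction, and 8 of the kinases, adaptors and effectors, 3 higher and 5 lower, the latter including *Foxo1* at −0.42 (adjusted p = 0.0203). The shares of the kinase and insulin-induced lists were close to that of all genes, and nothing particular to any of these lists is read from the counts.

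**Figure D3:**
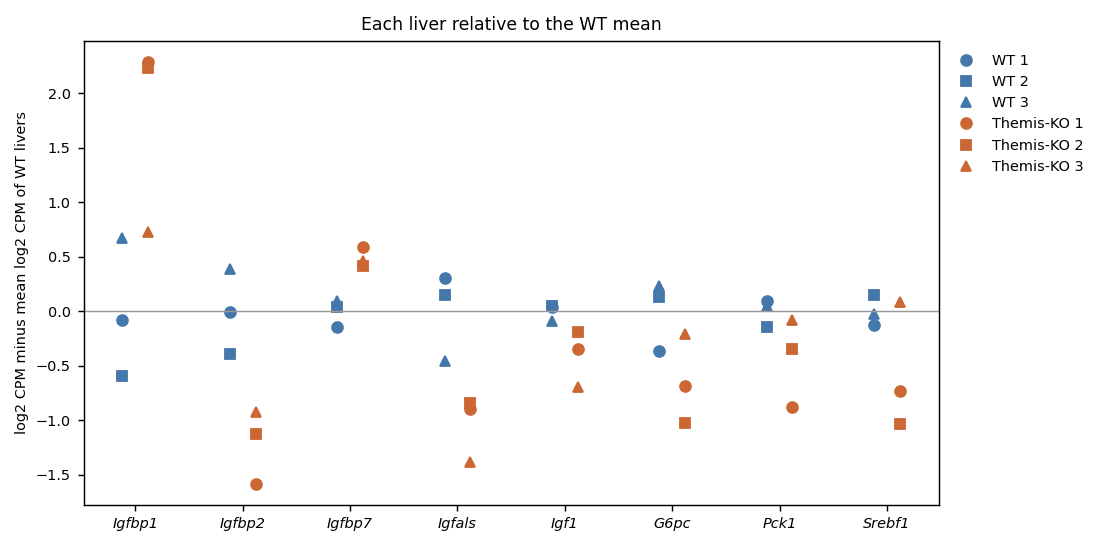
Log2 CPM of 8 genes in each liver relative to the mean of the livers labelled WT (line at 0), with WT-labelled livers in blue and *Themis*-KO-labelled livers in orange and circles, squares and triangles for replicates 1, 2 and 3. *Themis*-KO replicate 3 sits with the WT livers for *Srebf1* and below them with the other *Themis*-KO livers for *Igfbp2* and *Igfals*.

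Fasting and the time of day act on *Igfbp1* and *Irs2*, and genes that report on both were listed. The 15 fasting-response genes had a median log2 fold change of −0.17. Where 9.11% of all tested genes passed, 2 of the 15 fell and 0 rose. These were *Cyp4a10*, a fatty acid hydroxylase gene with 292, 274 and 159 CPM in livers labelled WT and 92.5, 101 and 119 in livers labelled *Themis*-KO (log2 fold change −1.21, adjusted p = 0.0266), and *Acot1*, an acyl-CoA thioesterase gene (log2 fold change −0.59, adjusted p = 0.0416). Both have close paralogs with which reads can be shared, so these values are uncertain. *Cyp4a10* lost its call without WT replicate 1 or 2 or *Themis*-KO replicate 1 or 2, and *Acot1* kept it only without *Themis*-KO replicate 3 among the fits that left out 1 liver. DESeq2 called 7 of the 15, 3 higher and 4 lower, where it called 15.1% of all genes, and with total-count scaling edgeR called 2 higher and 1 lower. Of 17 circadian clock genes, 16 were tested and 0 passed in edgeR, with a median log2 fold change of −0.18. The unadjusted p was under 0.05 for 4 of them, beside 30.7% of all tested genes. DESeq2, which called 15.1% of all genes, called 2 clock genes lower. Without *Themis*-KO replicate 3 edgeR called 7 clock genes lower and 1 higher, against 28.8% of all genes in that fit. The part of feeding state and time of day in the differences of *Igfbp1* was not tested.

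**Figure D4:**
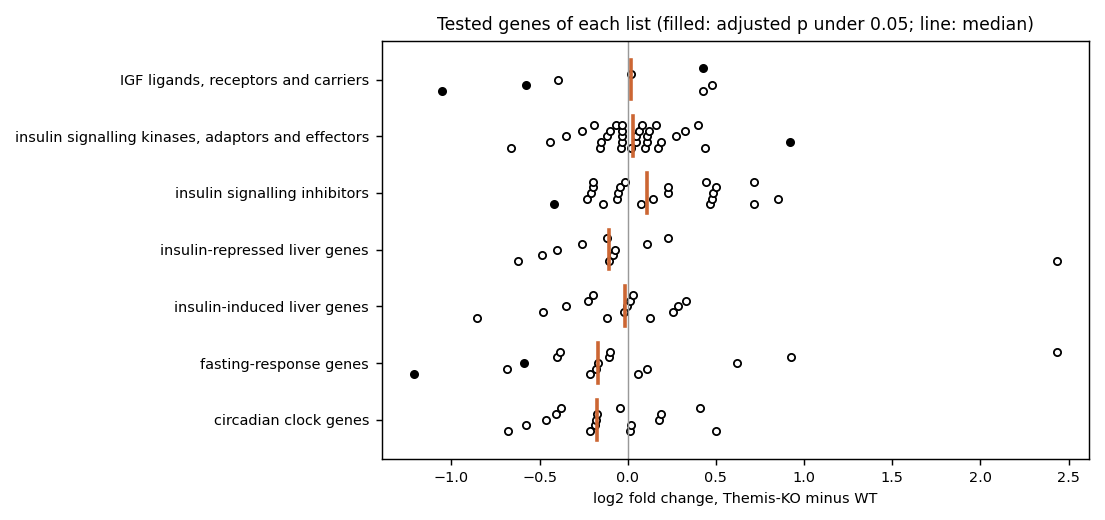
Log2 fold change between *Themis*-KO and WT labels for each tested gene of 7 lists, with filled points for an adjusted p under 0.05 and an orange line at each list's median; points are spread vertically only for display. The medians lie between −0.18 and 0.11, and the point at 2.44 in the insulin-repressed and the fasting-response lists is *Pdk4*, which both lists hold.

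The calls of *Igfbp1*, *Igfbp2* and *Igfbp7* did not depend on the scaling, the filter on low counts or the tool. Each had an adjusted p under 0.05 in 8 of 14 alternative fits, which were the 6 fits with another scaling, filter or tool and those without WT replicate 3 or without *Themis*-KO replicate 3. Over the 14 fits the log2 fold change lay between 1.23 and 2.22 for *Igfbp1*, between −1.57 and −1.001 for *Igfbp2* and between 0.40 and 0.62 for *Igfbp7*. With both replicates 3 left out, a fit added after the data were examined, it was 2.57 for *Igfbp1*, −1.15 for *Igfbp2* and 0.55 for *Igfbp7*, and all 3 passed.

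**Figure D5:**
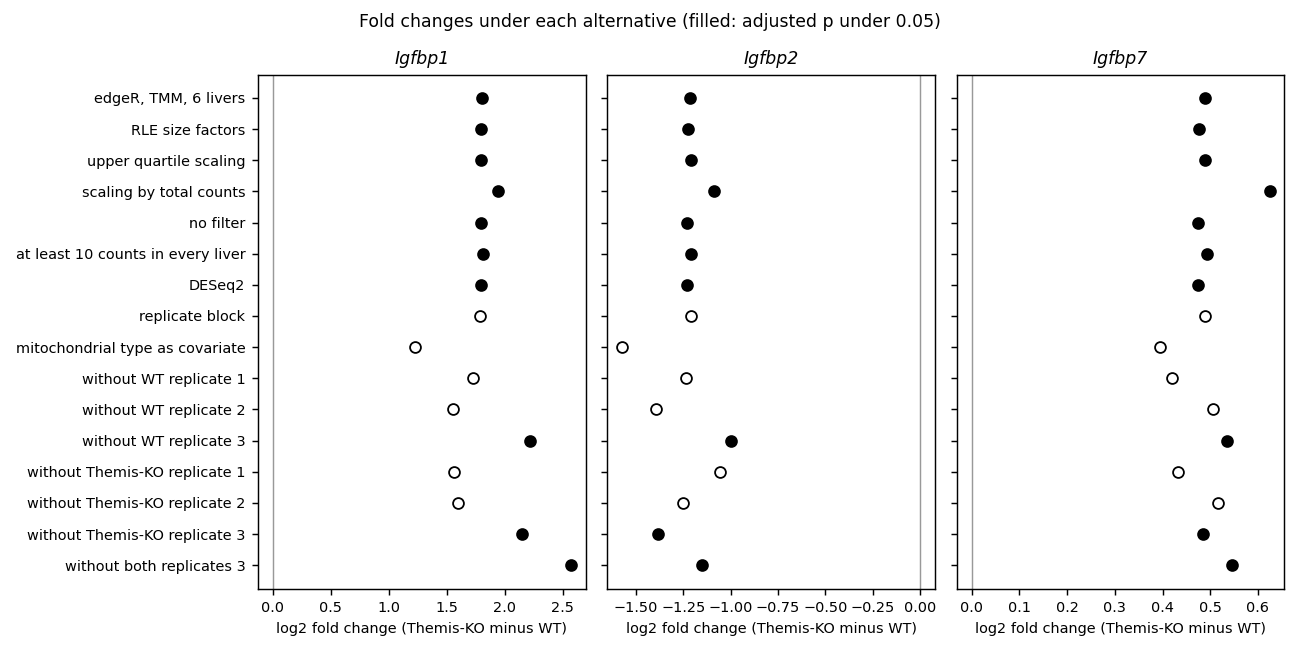
Log2 fold change of *Igfbp1*, *Igfbp2* and *Igfbp7* between *Themis*-KO and WT labels under each alternative fit, with filled points for an adjusted p under 0.05. Every point of *Igfbp1* and *Igfbp7* lies above 0 and every point of *Igfbp2* below it, and the open points are the fits with a covariate or block and those without replicate 1 or 2 of either group.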

How the data were processed

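Liver RNA of 3 WT and 3 *Themis*-KO mice on the MASH diet was compared, with groups and replicate numbers taken from the sample titles. The authors mapped reads to GRCm38 with STAR 2.7.8a and estimated reads per gene with RSEM 1.3.3, and the submitters' processing notes also name cutadapt 2.3. Their own comparison used DESeq2, while edgeR was used here. They deposited these estimated counts without normalization, as whole numbers, and values were rounded here without effect. RSEM divides reads shared by similar genes, and the annotation release is not given in the sources used here.

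The analysis ran in edgeR 4.0.16 under R 4.3.3. The filterByExpr step left 14496 of 25403 genes, TMM scaled the libraries, and glmQLFit and glmQLFTest compared the labels without covariates (common coefficient of variation 0.157). Benjamini-Hochberg adjustment of p-values covered all tested genes, and 0.05 was the threshold. Standard errors and 95% intervals came from the F statistic. A fold change is that of livers labelled *Themis*-KO over livers labelled WT. CPM are TMM-normalized, and CPM per kilobase divide by the union of exons in GENCODE M21, an annotation of GRCm38.

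The members and gene lists were chosen with earlier results of these data known. Genes were named by this rule: *Themis*, the 10 members, 15 fixed pathway genes (1 of them not reported here) and up to 4 called genes per list with the largest change; *Pdk4*, *Thrsp*, *Gpam*, *Klf15*, *Me1*, *Lyve1*, *Spp1*, *Polr2b*, *Alb*, *Xist*, *mt-Nd3* and *Gm28438* fall outside it. The alternatives were other scalings, filters and thresholds, DESeq2 1.42.0, a replicate block, the mitochondrial type as a covariate and each liver left out. The fit without both replicates 3 was chosen after seeing the data. The edgeR fit was tested on simulated counts. Figures were drawn with matplotlib 3.10.9.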

Additional observations from a re-analysis of the deposited data

How the results depend on the processing

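Same-numbered WT and *Themis*-KO livers had correlations of 0, −0.241 and −0.157 between their deviations from the group means, and none correlated best with its own number. With 3 livers per group such values can neither show nor exclude pairs. The numbers were not taken as pairs. The study speaks of pairs of livers, and what joins a pair is not given in the sources used here. With a replicate block, 0 of the 10 genes, 1 gene of the IGF list and 0 kinases, inhibitors or fasting-response genes passed, of 17 higher and 45 lower genes in all. None of the 28 named genes gained a call in that fit. With the mitochondrial type as a covariate, an alternative known from earlier results, 0 genes passed of the 10 and of the IGF, kinase, inhibitor and fasting-response lists, and the log2 fold changes were −0.28 for *Igfbp6* and 0.74 for *Socs2*. That fit called 0 genes higher and 3 lower in all, and 1524 had an unadjusted p under 0.05. With 1 liver left out in turn, the genes called numbered 0 to 4 of the 10, 0 to 3 of the IGF list, 0 to 8 kinases, 0 to 10 inhibitors, 0 to 4 insulin-repressed, 0 to 4 insulin-induced, 0 to 7 fasting-response and 0 to 8 clock genes. Of all genes, 0.136% to 28.8% passed in these fits. DESeq2 and edgeR without a filter on low counts each called 4 of the 10 genes, and DESeq2 4 of the IGF list. DESeq2 called 2 kinases, 2 inhibitors, 2 insulin-repressed, 7 fasting-response and 2 clock genes, and edgeR without a filter on low counts 2, 2, 2, 6 and 1, of 1207 higher and 1072 lower and of 1212 higher and 967 lower genes in all. With total-count scaling 2 fasting-response genes were higher and 1 lower, 3 inhibitors, 1 insulin-repressed gene and 1 clock gene passed, and the log2 fold changes were 0.074 for *Akt2* and 0.14 for *Socs2*. Of all tested genes, 12.7% passed with that scaling. An adjusted p under 0.1 gave 5 of the 10 genes, 3 kinases, 5 inhibitors, 1 insulin-repressed, 6 fasting-response and 2 clock genes, and a fold change of at least 2 gave 1 gene of the IGF list, 0 kinases, 0 inhibitors and 1 fasting-response gene. The share of all tested genes at either of these thresholds is not given here, so nothing about the lists is read from these counts. The sign also turned for *Igf1r*, which lay between −0.0249 and 0.0658 over the fits with 1 liver left out (−0.0086 and −0.0044 without WT replicates 2 and 3), for *Foxo1*, which lay between −0.42 and 1e-04, and for *Socs2*, which lay between −0.32 and 0.31 (0.29 without *Themis*-KO replicate 3). Without both replicates 3, chosen after the data were examined, *Igf1r* was at −0.0361 and *Socs2* at 0.0222. The cause of these changes was not tested. Of 419 log2 fold changes of 28 named genes over the alternatives, 327 kept their sign and side of the threshold, 64 lost and 16 gained a call, and 12 turned. *Igfbp6* could not be tested with at least 10 counts in every liver. With 0 to 22 counts per liver for *Igfbp6* and 6 to 13 for *Igf2*, depth limits what can be said of both. A fit that leaves out 1 liver rests on the spread of the remaining 5.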
